A study of Mus musculus with 7 samples.

Results

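The genes of cholesterol synthesis, its control, and the uptake, transport, storage and export of sterols were compared between mouse embryonic stem cells (mESCs) and mouse embryonic fibroblasts (MEFs). The 31 members are the rows of the gene count table whose symbol is on a list drawn up from known functions, out of 55484 genes listed. Of these, 30 were among the 16580 genes with enough counts to be tested, and Nr1h3 was not. The study sequenced RNA from 4 MEF and 3 mESC libraries. Its methods give a C57/Bl6 background for all MEFs and mESCs, in the section on the chromatin libraries. MEFs are fibroblasts grown from the mouse embryo, while mESCs come from the inner cells of the early embryo and are pluripotent. No line, clone, passage or medium is given for either group in the sources used here, so cell type and culture medium cannot be told apart. The figure legends of the study call the RNA data biological replicates, but count fewer MEF replicates than there are MEF libraries, and no source used here says whether the libraries came from separate cultures. All 7 libraries were used, and p-values measure the spread between them, which may be technical in part. The libraries are named here by the ends of their column names, O1 to O4 for MEFs and Y1 to Y3 for mESCs, letters that no source used here explains, and values are always given in that order.

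Cells make cholesterol from acetyl-CoA in a long chain of enzymes that passes through mevalonate, farnesyl pyrophosphate, squalene and lanosterol, and they also take it up from outside as lipoprotein. When sterol in the endoplasmic reticulum is low, SCAP carries the SREBP transcription factors to the Golgi, where they are cut and released to raise the genes of synthesis and uptake. When sterol is plentiful, INSIG proteins hold SCAP back, and oxysterols activate the LXR receptors, which raise genes of sterol export.

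The libraries held 6528643 to 11441278 counts on genes, and a floor of 3 counts per library corresponded to 0.288 to 0.477 CPM, which covers counting error only. CPM are counts scaled to a common library size, with library totals corrected by the TMM method of edgeR. Per the labels, the libraries were made by a method biased to the 3′ ends of transcripts, so levels are compared between libraries and not between genes. The labels of cell type held, since 8 of 9 pluripotency markers were higher and 9 of 9 fibroblast markers lower in mESCs. Summed pluripotency markers ran from 26.5 to 29.8 CPM in MEFs and from 2405 to 2653 CPM in mESCs. The extraction protocol in the labels speaks of blood stem cells from young and aged mice, while the cell type labels and column names say MEF and mESC. The 7 blood markers summed to at most 30.6 CPM in MEFs and 28.3 CPM in mESCs. All 37 mitochondrial genes were listed at 0 in every library. In bulk RNA, fewer cells that express a gene and less of its RNA per cell cannot be told apart.

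Of the 30 members tested, 2 were higher and 13 lower in mESCs by the quasi-likelihood test of edgeR, at a p under 0.05 after Benjamini-Hochberg adjustment over all 16580 genes. These are 6.67% and 43.3% of the members tested, against 22.8% higher and 25.0% lower among all genes tested. In either direction 50% of members were called, close to the 47.9% of all genes. The mESC and MEF libraries did not overlap for 56.7% of members and 52.1% of all genes. The median log2 fold change of mESCs over MEFs was -0.23 for the members and 0.04 for all genes tested, and member values ran from -2.10 to 0.76. Of the 30 members tested, 5 were called and differed by more than 2-fold in the fit, all of them lower in mESCs. Among all 16580 genes tested, 6114 did so in either direction. The counts of calls and the medians depended on the scaling. Without TMM, with library totals alone, the median of all genes moved to 0.32 and that of the members to 0.05. The member median thus stayed below that of all genes. In that fit 6 members were higher and 8 lower, beside 5180 higher and 3345 lower among all genes.

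**Figure D1:**
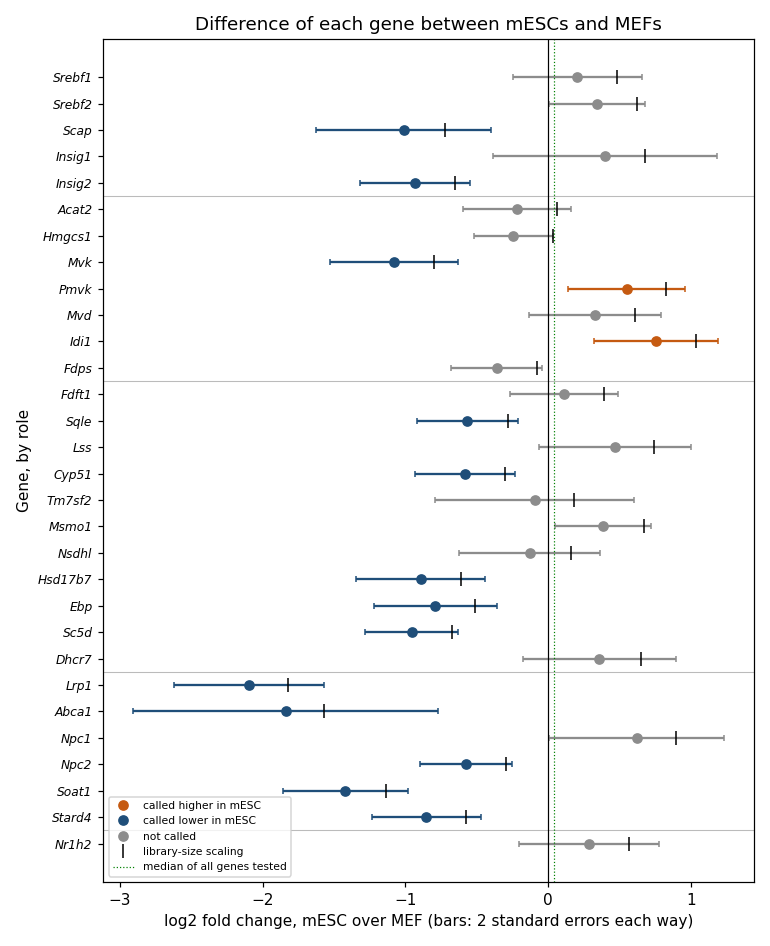
Log2 fold change of mESCs over MEFs (horizontal axis) for each of the 30 members tested, grouped by role from regulators at the top to Nr1h2 at the bottom. Dots are the TMM-scaled edgeR fit with bars of 2 standard errors each way, short vertical ticks are the same gene with library totals alone, the dotted line is the median of all genes tested at 0.04, and 13 members lie to the left as called lower against 2 called higher.

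Promoter windows from RefSeq (GRCm38.p6), the 250 bases before each annotated start, were used for 26 members, with 35 windows in all. No window of Fdps, Fdft1, Sqle, Npc1 or Stard4 was used, so the shares below leave these members out. The windows are shown because sterol-responsive promoters of this pathway are known for sterol regulatory elements beside NF-Y and SP1 sites. No relation of these sequences to the levels was tested. The strings searched, on both strands, were CCAAT for NF-Y, GGGCGG for SP1 and TCACNCCAC for the sterol regulatory element, and none of them contains another. CCAAT was in 77.8% of the 18 windows of synthesis enzymes, 41.2% of the 17 windows of other members, and 33.9% of all 32851 promoters of the same length. GGGCGG was in 83.3%, 58.8% and 32.7% of these, and in 42.6% of the promoters of protein-coding genes. Some genes have several windows. Counted per gene, with a match in any window, CCAAT was in 93.33% of 15 enzymes, 54.55% of 11 other members and 37.49% of all genes. Per gene GGGCGG was in 93.33%, 72.73% and 35.36%. TCACNCCAC was in 1 member window, that of Hmgcs1, and in 1.05% of all promoters. The windows printed are the 7 of members that have a single window, free of annotated exons, with the matches in capitals as read on the printed strand, so that ATTGG and CCGCCC are CCAAT and GGGCGG on the other strand. Hmgcs1 lies at chr13:119690101-119690350 on the plus strand. The others lie on the minus strand, Mvd at chr8:122443423-122443672, Ebp at chrX:8193513-8193762, Sc5d at chr9:42264301-42264550, Lrp1 at chr10:127621149-127621398, Abca1 at chr4:53159896-53160145 and Nr1h2 at chr7:44553966-44554215.
Hmgcs1: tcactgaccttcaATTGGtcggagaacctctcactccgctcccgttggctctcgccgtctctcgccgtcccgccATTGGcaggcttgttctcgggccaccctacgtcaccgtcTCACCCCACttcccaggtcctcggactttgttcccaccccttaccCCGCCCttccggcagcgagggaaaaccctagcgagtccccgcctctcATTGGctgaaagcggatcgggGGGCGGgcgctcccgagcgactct
Mvd: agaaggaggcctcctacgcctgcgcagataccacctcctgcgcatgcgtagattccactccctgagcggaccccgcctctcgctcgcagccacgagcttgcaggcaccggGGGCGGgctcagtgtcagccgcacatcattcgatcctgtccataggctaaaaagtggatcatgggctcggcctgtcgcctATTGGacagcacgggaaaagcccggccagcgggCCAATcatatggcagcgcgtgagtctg
Ebp: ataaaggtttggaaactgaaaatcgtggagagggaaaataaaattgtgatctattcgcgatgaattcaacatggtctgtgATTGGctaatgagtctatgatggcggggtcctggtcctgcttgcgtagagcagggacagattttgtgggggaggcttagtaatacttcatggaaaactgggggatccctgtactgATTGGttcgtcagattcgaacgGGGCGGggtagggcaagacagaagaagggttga
Sc5d: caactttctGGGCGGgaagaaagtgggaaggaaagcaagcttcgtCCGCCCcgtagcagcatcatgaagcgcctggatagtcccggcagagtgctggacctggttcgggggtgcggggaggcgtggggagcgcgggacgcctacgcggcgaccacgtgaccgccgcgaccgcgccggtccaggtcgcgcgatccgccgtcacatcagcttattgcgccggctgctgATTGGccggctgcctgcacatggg
Lrp1: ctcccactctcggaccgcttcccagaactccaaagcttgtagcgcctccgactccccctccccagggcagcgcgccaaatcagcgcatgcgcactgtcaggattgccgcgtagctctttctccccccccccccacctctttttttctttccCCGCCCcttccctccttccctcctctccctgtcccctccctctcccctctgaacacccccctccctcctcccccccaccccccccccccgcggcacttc
Abca1: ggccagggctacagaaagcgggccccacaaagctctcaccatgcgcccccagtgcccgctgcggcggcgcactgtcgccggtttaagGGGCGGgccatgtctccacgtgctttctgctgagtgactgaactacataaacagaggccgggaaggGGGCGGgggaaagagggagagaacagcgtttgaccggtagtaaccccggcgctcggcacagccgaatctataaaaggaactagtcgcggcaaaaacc
Nr1h2: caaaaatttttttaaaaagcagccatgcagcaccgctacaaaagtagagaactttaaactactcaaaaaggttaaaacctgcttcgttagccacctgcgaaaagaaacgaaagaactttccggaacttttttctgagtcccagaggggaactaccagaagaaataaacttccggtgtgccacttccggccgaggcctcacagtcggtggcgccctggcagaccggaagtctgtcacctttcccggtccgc

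As printed, the Hmgcs1 window held 3 CCAAT strings, 2 GGGCGG strings and the only TCACNCCAC, and its gene was not called between the cell types. Those of Ebp and Sc5d, both lower in mESCs, held 2 and 1 CCAAT and 1 and 2 GGGCGG. Mvd, not called, held 2 CCAAT and 1 GGGCGG. The windows of Lrp1 and Abca1, the members with the lowest log2 fold changes, held 1 and 2 GGGCGG and no CCAAT, and that of Nr1h2 held none of the strings. A match is a description of these letters only.

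The 3 lowest log2 fold changes of the members belonged to genes that handle sterols already made. Of the 6 genes of uptake, transport, storage and efflux, 5 were lower in mESCs and none was called higher, with a median log2 fold change of -1.14. Over all genes tested, 25.0% were lower and 22.8% higher. With library totals alone, Lrp1, Soat1, Abca1 and Stard4 stayed lower, Npc2 was not called and Npc1 was called higher. That scaling gave 5180 higher and 3345 lower over all genes. Lrp1 encodes a large endocytic receptor that takes up lipoprotein remnants and other ligands (chromosome 10 of GRCm38, 127538161 to 127621148). It was counted at 41.0, 64.5, 80.5 and 67.6 CPM in MEFs and at 11.8, 18.2 and 14.4 CPM in mESCs. Every mESC library was below every MEF library, and MEF O1 was the lowest of its group. Its log2 fold change was the lowest of the members, at -2.10 with a standard error (SE) of 0.26 (adjusted p = 8.00e-05, edgeR).

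Soat1 encodes the enzyme of the endoplasmic reticulum that joins cholesterol to fatty acids for storage in droplets (chromosome 1, 156424525 to 156474331). Its levels were 203, 179, 192 and 114 CPM in MEFs against 71.7, 68.1 and 52.6 CPM in mESCs. The groups did not overlap, although MEF O4 lay well below the other MEF libraries. This came to a log2 fold change of -1.42 (edgeR, SE 0.22, adjusted p = 0.00034). Lrp1 and Soat1 were the only members to pass a test against a fold change of 2, which 3991 of all 16580 genes tested passed.

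Abca1 encodes the transporter that exports cholesterol to apolipoproteins and is a known target of the LXR receptors (chromosome 4, 53030787 to 53159895). It was counted at 10.3, 6.55, 34.4 and 28.6 CPM in MEFs, and at 4.99, 5.45 and 6.25 CPM in mESCs. All mESC libraries were lower than all MEF libraries, but the MEF libraries differed among themselves by 5.25-fold, with O1 and O2 low and O3 and O4 high, the widest MEF spread of the members tested. At -1.84, the log2 fold change of Abca1 had a standard error of 0.54 (adjusted p = 0.0156, edgeR). Leaving out mESC Y1 gave -1.77 and ended the call (adjusted p = 0.055, edgeR).

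Stard4, a small carrier that moves cholesterol between membranes in the cytosol, had 39.6, 39.6, 30.3 and 40.4 CPM in MEFs and 22.3, 21.6 and 18.3 CPM in mESCs. MEF O3 was the lowest of its group and still above every mESC library. In the fit, Stard4 had a log2 fold change of -0.85 (edgeR, SE 0.19, adjusted p = 0.00369). Npc2, which binds cholesterol released inside lysosomes and passes it to NPC1, had 239, 270, 273 and 361 CPM in MEFs and 206, 183 and 185 CPM in mESCs. The groups did not overlap, with a log2 fold change of -0.57 (edgeR, SE 0.16, adjusted p = 0.0129), but with library totals alone the difference was -0.30 and was not called.

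Npc1, the lysosomal membrane protein that receives this cholesterol, pointed the other way. It had 4.99, 5.03, 5.39 and 5.88 CPM in MEFs and 7.59, 10.2 and 6.72 CPM in mESCs, so that every mESC library was above every MEF library. Its log2 fold change of 0.62 had a standard error of 0.31 and did not pass the test (adjusted p = 0.121, edgeR), with an interval of 0.01 to 1.23 at 2 standard errors each way. With library totals alone it was 0.89 and passed. Among the last 500 exon bases of Npc1, 192 overlap exons of other genes on the opposite strand, and the strand setting of the counting is not given in the sources used here.

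**Figure D2:**
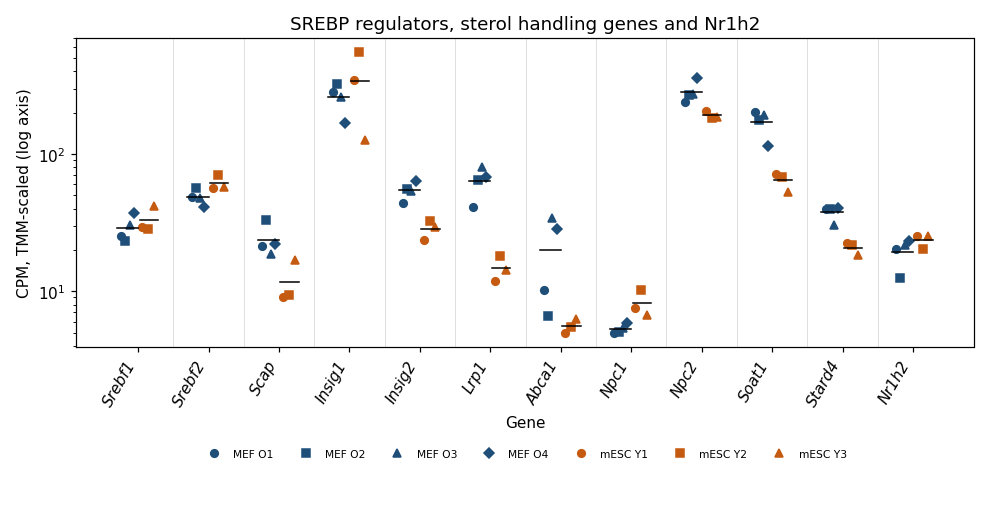
TMM-scaled CPM on a log axis for the 5 SREBP regulators, the 6 sterol handling genes and Nr1h2, with 1 point per library and short lines at the group means. Blue MEF points lie above all orange mESC points for Scap, Insig2, Lrp1, Abca1, Npc2, Soat1 and Stard4 and below them for Npc1, and Insig1 shows the wide spread of its mESC libraries.

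Among the 5 SREBP regulators, 2 were lower in mESCs and none was called higher, with a median log2 fold change of 0.20. The shares over all genes tested were 25.0% lower and 22.8% higher. With library totals alone, Insig2 stayed lower, Scap was not called and Srebf2 was called higher, beside 5180 higher and 3345 lower of all genes. Srebf1, which encodes the SREBP1 factors best known for fatty acid synthesis, had 25.3, 23.3, 30.2 and 36.9 CPM in MEFs and 29.6, 28.4 and 41.9 CPM in mESCs. Srebf2, which encodes the factor best known for the cholesterol genes, had 48.6, 56.7, 47.8 and 41.0 CPM in MEFs and 56.6, 70.6 and 57.5 CPM in mESCs. The libraries of both genes overlapped between groups. Srebf1 had a log2 fold change of 0.20 (interval -0.25 to 0.65) and Srebf2 one of 0.34 (0.0026 to 0.68), and neither passed the test, although Srebf2 did with library totals alone at 0.62 (adjusted p = 0.00777, edgeR).

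Scap, the escort of the SREBPs, had 21.2, 33.2, 18.6 and 22.1 CPM in MEFs and 9.10, 9.32 and 16.9 CPM in mESCs. No mESC library reached the lowest MEF library, although mESC Y3 came near it. Scap had a log2 fold change of -1.01 (edgeR, SE 0.31, adjusted p = 0.0187). Of the exon bases of Scap, 13.2% overlap the antisense gene 5830462I19Rik, so its count is uncertain. The call was lost without MEF O2 (log2 fold change -0.82), without mESC Y1 (-0.86), without mESC Y2 (-0.87) and with library totals alone (-0.73).

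Insig2 had 43.9, 55.9, 53.7 and 63.6 CPM in MEFs and 23.6, 32.3 and 29.5 CPM in mESCs, 2 groups that did not overlap. Its log2 fold change of -0.93 had a standard error of 0.19 (adjusted p = 0.0023, edgeR) and passed without any 1 of the 7 libraries. Insig1, its paralog and itself a target of the SREBPs, had 283, 325, 260 and 169 CPM in MEFs and 345, 555 and 126 CPM in mESCs. The 3 mESC libraries spanned 4.40-fold, the widest of the members tested, and lay both above and below all MEF libraries. Insig1 had a log2 fold change of 0.40 that came with a standard error of 0.39 (adjusted p = 0.441, edgeR). It became -0.14 without mESC Y2, and became 0.79 and passed without mESC Y3 (adjusted p = 0.0359, edgeR). The log2 ratio of Insig1 to Insig2 was 2.22 ± 0.57 in MEFs (SD, n = 4) and 3.35 ± 1.10 in mESCs (SD, n = 3), a difference of 1.12 that did not pass an exact permutation test (two-sided, p = 0.2, adjusted p = 0.343 over 3 paralog pairs). The smallest p that 4 against 3 libraries allow is 0.0286.

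The ratio of Srebf1 to Srebf2 also did not pass, at -0.75 ± 0.47 on the log2 scale in MEFs and -0.90 ± 0.43 in mESCs (SD, n = 4 and 3; exact permutation test, two-sided, p = 0.714, adjusted p = 0.714). The LXR receptors bind oxysterols. Nr1h2, which encodes LXR beta, had 20.1, 12.5, 21.8 and 23.4 CPM in MEFs and 25.5, 20.5 and 25.2 CPM in mESCs. These libraries overlapped, with a log2 fold change of 0.28 (interval -0.21 to 0.78). Nr1h3, which encodes LXR alpha, had 16, 0, 2 and 3 counts in MEFs and 2, 0 and 3 counts in mESCs. Apart from MEF O1, every library was at or under the floor of 3 counts, and Nr1h3 was not tested.

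The 18 synthesis enzymes were mixed, with 2 higher, 6 lower and 10 not called, a median log2 fold change of -0.17 and values from -1.08 to 0.76. In the first part of the pathway, from acetyl-CoA to farnesyl pyrophosphate, 2 of 7 were higher and 1 lower. Beside these counts, 22.8% of all genes tested were higher and 25.0% lower, 47.9% in either direction. The enzymes that work next to each other on mevalonate differed in direction. Mvk, mevalonate kinase (chromosome 5, 114444269 to 114460591), had 30.3, 36.9, 32.6 and 37.2 CPM in MEFs and 20.9, 15.1 and 12.5 CPM in mESCs. The groups were well apart, with a log2 fold change of -1.08 (edgeR, SE 0.22, adjusted p = 0.00233). Pmvk, phosphomevalonate kinase, which adds the next phosphate, had 34.2, 38.3, 46.5 and 50.3 CPM in MEFs and 78.8, 54.7 and 51.9 CPM in mESCs. All mESC libraries were above all MEF libraries, but Y3 was only just above MEF O4. Its log2 fold change of 0.55 had a standard error of 0.21 (adjusted p = 0.0485, edgeR), and the call was lost without MEF O1 (0.45), O2 (0.50) or O3 (0.59), or without mESC Y1 (0.33) or Y2 (0.63).

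Idi1, the isomerase that makes dimethylallyl pyrophosphate, had 22.7, 19.5, 20.0 and 21.6 CPM in MEFs and 46.4, 26.6 and 33.3 CPM in mESCs. It was above the close MEF values in every mESC library, highest in Y1. Idi1 had a log2 fold change of 0.76 (edgeR, SE 0.22, adjusted p = 0.0149), and 0.51 without mESC Y1, where it no longer passed (adjusted p = 0.0979, edgeR). Of the 50-base sequences of its transcripts, 25.3% also occur in other annotated genes, Gm13502 and Gm48574 among them, so its count is uncertain.

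Hmgcs1, the synthase that makes HMG-CoA and the member whose printed promoter held all the strings, had 248, 225, 226 and 233 CPM in MEFs and 174, 226 and 191 CPM in mESCs. The groups overlapped by 1 mESC library. Its log2 fold change of -0.24 had an interval of -0.52 to 0.03, the narrowest of the 15 members not called, and turned to 0.04 with library totals alone. Fdps, which makes farnesyl pyrophosphate, had 43.4, 44.5, 41.9 and 44.5 CPM in MEFs and 33.1, 30.9 and 37.8 CPM in mESCs. These groups did not overlap, yet the log2 fold change of -0.36 did not pass the test (adjusted p = 0.0854, edgeR). Fdps shares 26.7% of its exon bases with Gm43738 on the same strand. Acat2, the thiolase of the first step, ran from 228 to 339 CPM in MEFs and from 199 to 302 CPM in mESCs, and Mvd, the decarboxylase, from 14.5 to 22.1 CPM and from 18.9 to 25.01 CPM. Both overlapped between the groups, with log2 fold changes of -0.22 and 0.33, and neither was called. Acat2 shares 39.1% of its 50-base sequences with Acat3 and Tcp1.

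In the second part, from squalene to cholesterol, 5 of 11 enzymes were lower in mESCs and none was called higher. Of all genes tested, 25.0% were lower and 22.8% higher. The count depended on TMM. With library totals alone, only Hsd17b7 and Sc5d stayed lower, and Lss and Msmo1 were called higher. That scaling gave 5180 higher and 3345 lower over all genes. Sc5d, the sterol desaturase of a late step (chromosome 9, 42251595 to 42264256), differed most among the 5 called lower with TMM. It had 158, 201, 158 and 150 CPM in MEFs and 94.7, 88.3 and 74.8 CPM in mESCs. MEF O2 stood above the other MEF libraries, and no mESC library came near them. Sc5d had a log2 fold change of -0.96 (edgeR, SE 0.16, adjusted p = 0.000675).

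Hsd17b7, a 3-ketosteroid reductase of sterol demethylation, had 48.6, 50, 28.4 and 37.4 CPM in MEFs and 20.5, 23.0 and 22.9 CPM in mESCs. The MEF libraries spread 1.76-fold, near the median of 1.78 over all genes tested. All lay above the close mESC values, with a log2 fold change of -0.89 (edgeR, SE 0.23, adjusted p = 0.00759). Ebp, the sterol isomerase, had 29.5, 27.4, 24.7 and 32.4 CPM in MEFs and 18.8, 18.0 and 12.7 CPM in mESCs. The groups did not overlap, with a log2 fold change of -0.79 (edgeR, SE 0.22, adjusted p = 0.0115), which was -0.51 and not called with library totals alone.

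Sqle, squalene epoxidase, a control point of the pathway, had 104, 101, 70.5 and 80.9 CPM in MEFs and 61.2, 62.5 and 57.0 CPM in mESCs. The mESC values were close together and under all MEF values. The log2 fold change of -0.57 (edgeR, SE 0.18, adjusted p = 0.0212) no longer passed without mESC Y1 (-0.58) or Y3 (-0.53), or with library totals alone (-0.28). Cyp51, the lanosterol demethylase, had 142, 138, 141 and 156 CPM in MEFs and 100, 72.5 and 116 CPM in mESCs. Its mESC libraries varied more than its MEF libraries and all lay lower. The log2 fold change of -0.59 (edgeR, SE 0.17, adjusted p = 0.0177) no longer passed without mESC Y2 (-0.42) or with library totals alone (-0.30). Of the last 500 exon bases of Cyp51, 166 overlap Akap9 on the opposite strand.

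Of the 6 enzymes of this stretch that were not called, Msmo1, the methyl sterol oxidase, came nearest to the threshold. It had 202, 176, 135 and 140 CPM in MEFs and 209, 202 and 229 CPM in mESCs. The lowest mESC library was just below the highest MEF library, O1. The log2 fold change of 0.39 (adjusted p = 0.0813, edgeR) became 0.50 and passed without MEF O1 (adjusted p = 0.0283, edgeR). Lss, lanosterol synthase, had a log2 fold change of 0.47 and passed without MEF O4, at 0.69 (adjusted p = 0.044, edgeR). Both passed with library totals alone. Nsdhl, a sterol dehydrogenase, ran from 40.1 to 56.8 CPM in MEFs and from 28.3 to 61.0 CPM in mESCs, where Y2 was the lowest of all libraries and Y3 the highest. Dhcr7, which makes cholesterol in the last step of one branch, ran from 13.8 to 29.0 CPM in MEFs and from 21.9 to 34.4 CPM in mESCs. Their log2 fold changes were -0.13 and 0.36. For Fdft1, squalene synthase, and Tm7sf2, a sterol reductase, they were 0.11 and -0.09, and the libraries of all 4 genes overlapped between the cell types. The last 500 exon bases of Fdft1 are all covered by Ctsb on the opposite strand, and 12.1% of the exon bases of Tm7sf2 overlap Vps51.

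**Figure D3:**
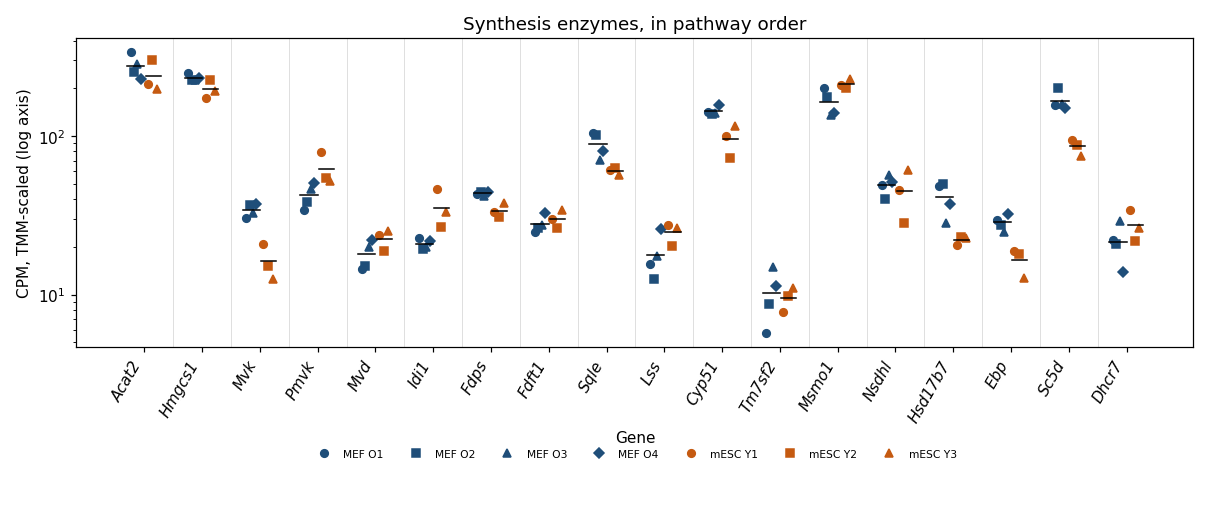
TMM-scaled CPM on a log axis for the 18 synthesis enzymes in pathway order from Acat2 to Dhcr7, with 1 point per library and short lines at the group means. Mvk, Fdps, Sqle, Cyp51, Hsd17b7, Ebp and Sc5d have all blue MEF points above all orange mESC points, while Pmvk and Idi1 have the reverse order.

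Summed over genes, which gives most weight to genes with many counts, the 18 enzymes came to 1429 ± 76.1 CPM in MEFs (SD, n = 4) and 1236 ± 13.1 CPM in mESCs (SD, n = 3). Every mESC sum lay below every MEF sum, but with library totals alone the sums were 1314 and 1381 CPM and overlapped. The part up to farnesyl pyrophosphate overlapped, at 669 ± 45.5 and 605 ± 63.0 CPM, and turned to 616 and 675 CPM with library totals alone. The part from squalene on did not overlap, at 760 ± 49.98 and 631 ± 51.5 CPM, but with library totals alone it overlapped and turned direction, at 698 and 706 CPM. Sterol handling genes summed to 583 ± 39.4 CPM in MEFs and 305 ± 20.6 CPM in mESCs, and stayed lower in every mESC library with library totals alone, at 537 and 341 CPM. The 5 regulators gave 415 ± 66.3 and 477 ± 212 CPM, where Insig1 alone ranged from 126 to 555 CPM among the mESC libraries. No test was made of these sums.

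**Figure D4:**
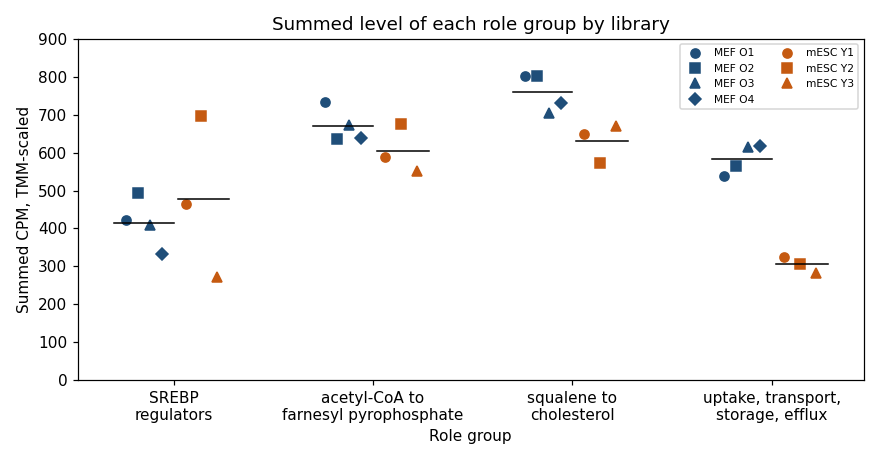
Summed TMM-scaled CPM (vertical axis from 0) of the members of each role in each library, with short lines at the group means. The sums of sterol handling genes lie between 537 and 617 CPM in MEFs and between 283 and 324 CPM in mESCs, while those of the regulators and of the first part of the synthesis overlap.

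Within a cell type the members varied less between libraries than the median gene, with no correction for level. The median ratio of the highest to the lowest library was 1.48 over the members and 1.78 over all genes tested in MEFs, and 1.36 against 1.52 in mESCs. For the 15 members not called, the interval of 2 standard errors each way ran no lower than -0.79, for Tm7sf2, and no higher than 1.23, for Npc1, and for 12 of them it lay within 2-fold in both directions. The counts of 7 members (Scap, Acat2, Hmgcs1, Idi1, Fdps, Fdft1 and Tm7sf2) are uncertain, because at least 10% of their exon bases or 50-base sequences are shared with another annotated gene. Without them, 1 member was higher and 12 were lower. The 10% rule covers whole genes, while the libraries were biased to the 3′ ends. Among the last 500 exon bases, Srebf1 (109), Cyp51 (166) and Npc1 (192), outside this set, overlap exons of other genes. Of the 7 members, Fdps (275) and Fdft1 (500) overlap there, while Scap, Acat2, Hmgcs1, Idi1 and Tm7sf2 have 0 overlapping bases. These numbers cover overlap of exons only. Acat2 and Idi1 came under the 10% rule by shared 50-base sequences alone. Where those sequences lie was not examined, so the 0 does not settle whether their 3′ ends are unique.

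Companion genes of the same pathways, 54 listed and 52 tested, gave 11 higher and 16 lower in mESCs, which is 21.2% and 30.8% of those tested, beside 22.8% and 25.0% of all genes. Among 14 genes of sterol and isoprenoid synthesis and SREBP processing, 1 was higher and 3 lower. Fntb, a subunit of farnesyl transferase, had a log2 fold change of 1.54. Dhdds, of dolichol synthesis, had -1.33, and Erlin2, a protein of the endoplasmic reticulum membrane, had -1.03. Of 15 genes of lipoprotein uptake and sterol transport, 3 were higher and 6 lower, among them Vldlr, the very low density lipoprotein receptor, at 41.8 ± 13.2 CPM in MEFs and 3.84 ± 2.92 CPM in mESCs (log2 fold change -3.44). Gramd1b, a sterol carrier at membrane contacts, had 1.53, and Lrpap1, the chaperone of LRP1, had 0.90, the reverse of its receptor.

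Among 11 genes of efflux, esters and oxysterols, 4 were higher and 3 lower. Apoe, the apolipoprotein that accepts exported cholesterol, was higher, at 113 ± 19.4 CPM in MEFs and 1775 ± 230 CPM in mESCs (SD, n = 4 and 3), a log2 fold change of 3.98 (edgeR, SE 0.17, adjusted p = 3.79e-08). Soat2, the paralog of Soat1, was at 0.63 ± 0.23 CPM in MEFs and 3.86 ± 1.88 CPM in mESCs (log2 fold change 2.55), the reverse of Soat1 at low counts. Ch25h, which makes 25-hydroxycholesterol, had 237, 169, 120 and 175 counts in MEFs and 0, 1 and 2 counts in mESCs, and Cyp7b1, which acts on that oxysterol, had 21, 23, 84 and 48 counts in MEFs and 4, 9 and 0 counts in mESCs. Both were called lower (edgeR), with Ch25h at or under the floor in every mESC library. Of 14 fatty acid synthesis genes, 3 were higher and 4 lower, with Acacb at 2.80 and Lpin1 at 1.38 as the highest log2 fold changes, and Me1 at -1.98 and Fads1 at -1.71 as the lowest. A test against a fold change of 2 left 14 of the 27 companion calls, beside 3991 of the 7938 calls over all genes.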

How the data were processed

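The authors aligned the trimmed reads to mm10 with STAR (version 2.4.2a in the submitters' processing notes, while the methods of the study name another version). Reads that shared a molecular identifier were merged with Je, and those with a unique place in exons were counted by featureCounts. The deposited values are whole gene counts without normalization, and no strand setting is given in the sources used here. Sorting of the cells on surface markers is described for the chromatin libraries and not stated for the RNA. The table held 26 rows with symbols in the form of dates and 2 symbols listed more than once, none of them members, and 0 columns were left unused.

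Counts were tested with edgeR 4.0.16 (limma 3.58.1, R 4.3.3) by TMM scaling, filterByExpr and the quasi-likelihood test over 7 libraries without covariates, with Benjamini-Hochberg adjustment over all genes tested. Log2 ratios of paralogs used a prior count of 2 and exact permutation tests. Intervals are 2 standard errors each way. The code was tested on simulated data. The members and lists were chosen with earlier results of these data known. Named are all members and, in each companion list, the 2 called genes with the highest and the 2 with the lowest log2 fold change, where the groups' libraries did not overlap. Genes that this rule names and that are left out are not reported here. Overlaps and coordinates are from GENCODE M21 on GRCm38. The alternatives were DESeq2 1.42.0, its size factors, library totals alone, other count filters, a test against a fold change of 2, other prior counts and each library left out.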

Additional observations from a re-analysis of the deposited data

Results flagged for a closer look

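2 of the 31 members had a MEF library that stood apart from the other 3 by Dixon's test, in which the gap to the nearest library is compared with the whole range. Sc5d was at 201 CPM in MEF O2, above the others, with a gap of 0.835 of the range. Stard4 was at 30.3 CPM in MEF O3, below the others, with a gap of 0.923 of the range. Chance flags about 5% of groups of this size, and the mESC group of 3 libraries was not tested. Both genes were called lower in mESCs without any 1 of the 7 libraries.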

How the results depend on the processing

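DESeq2, and DESeq2's size factors in edgeR, both gave 2 members higher and 13 lower. With library totals alone, 6 were higher and 8 lower, and 4 members that were not called turned sign, Acat2 to 0.061, Hmgcs1 to 0.035, Tm7sf2 to 0.18 and Nsdhl to 0.16 on the log2 scale. Over all genes this scaling gave 5180 higher and 3345 lower, 60.8% higher against 47.7% with TMM. With no filter beyond 1 count, or with 10 counts required in every library of one cell type, 1 member was higher, as Pmvk no longer passed. A test against a fold change of 2 left 0 members higher and 2 lower of the 30 tested. It left 3991 of all 16580 genes tested and 14 of the 52 companion genes tested. Leaving out each library gave 0 to 3 members higher and 10 to 13 lower. In those fits the log2 fold change ran from -0.30 to 0.15 for Tm7sf2, from -0.14 to 0.79 for Insig1, from -0.41 to 0.11 for Nsdhl and from -0.000602 to 0.33 for Srebf1. Leaving out the 7 members with uncertain reads left 1 higher. Where no cause is named, the cause was not tested. No paired analysis was possible because nothing states that a number in a column name belongs to a given sample. Genes under about 10 CPM, such as Npc1, rest on few counts.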

Other observations

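The 4 MEF libraries differed in pairs. The chi-square per degree of freedom was 15.8 between O1 and O2 and 20.1 between O3 and O4, and 26.2 to 31.1 between the other MEF pairs. This pattern was noticed after the values were seen. O1 and O2 both lay below O3 and O4 for 12 of the 31 members and both above for 5, which is 38.7% and 16.1%, against 22.6% and 21.7% of all genes tested. Abca1, Lrp1, Npc1, Npc2 and Nr1h2 were among the 12, and Srebf2, Insig1, Sqle, Msmo1 and Hsd17b7 were the 5. No label gives a batch for these libraries.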
